A study of Mus musculus with 13 samples.

Results

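The cells described are keratinocytes of newborn (P0) mouse back epidermis that carried both Krt6a and Sprr2a3 at a high level. Across the 5 P0 libraries, a cell was taken as a keratinocyte when Krt5, Krt14, Krt1 and Krt10 together reached 50 UMIs (unique molecular identifiers, each standing for 1 captured transcript molecule) per 10,000. It was called a high cell when Krt6a and Sprr2a3 together reached 5 UMIs per 10,000 with both genes detected. The rule found 229 high cells among 34852 P0 cells and 14193 keratinocytes, in a series of 97363 barcodes. Of these, 221 came from the Grhl3-/- (KO) libraries and 8 from the wild-type (WT) libraries. The cells were chosen by the values of these genes, so their levels of Krt6a, Sprr2a3 and the 4 keratins are given as a description without a test.

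Krt6a and its near copy Krt6b are keratins of the hair follicle companion layer, of nail and of other stressed or rapidly renewing epithelia. Normal interfollicular epidermis (IFE) makes little of them, and wounding or barrier damage switches them on together with Krt16. The Sprr2 genes encode small proline-rich proteins that are crosslinked into the cornified envelope, the protein shell of the outermost cells, and they too rise in stressed epidermis. Ly6a (Sca-1), a surface protein of some basal and follicle cells, and Tpm2, a tropomyosin that binds actin filaments, were given as further markers of these cells. Grhl3 is a transcription factor needed to form the epidermal barrier.

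All libraries were prepared by droplet capture (10x Genomics Chromium 3′) from C57BL/6 mice. WT 1 and WT 2 were from WT mice and KO 1 and KO 2 from Grhl3-/- littermates, whose genotype is the same in every tissue, all with v2 chemistry. WT v1 was a further WT library with the older chemistry and no KO partner, so it entered no test of genotype. The KO animals had spina bifida, and the skin was taken anterior to the defect. The epidermis was lifted off after a night in Dispase, dissociated with Accutase and depleted of dead cells, and no sort by marker was made.

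The P0 libraries held 49245953 to 107038146 UMIs, with a median of 7448 to 9976 UMIs per cell. Grhl3 in keratinocytes stood at 6.86, 11.1 and 13.5 CPM (the UMIs of a gene scaled to a common total for all genes) in WT v1, WT 1 and WT 2, against 2.47 and 4.82 CPM in KO 1 and KO 2. These are 93 and 94 UMIs in KO keratinocytes, and a 3′ tag does not show whether the deleted part of the gene was present. The methods state a male and a female of each genotype, but all 5 libraries carried Y-linked transcripts with Xist at 0.16 CPM or less. Barcodes shared between v2 libraries were at most 1.44% of the smaller library. The keratin limit of 50 also let in 5.45% to 11.5% of the cells with melanocyte markers of the v2 libraries, so the keratinocytes below the limit hold some cells of other types. Removing cells with markers of other types left 2250 genes higher and 2116 lower in the main comparison below, against 2427 and 2357 with them.

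The promoters of Sprr2d, S100a9, S100a8 and Sprr1b, the cornified envelope and S100 genes among the 10 highest genes of the comparison below, and that of Sprr2a3 are shown because these genes lead the comparison or define the cells. They are 250 bases before the start of transcription, from RefSeq on GRCm38.p6, 5′ to 3′ on the gene's strand, with motif matches in capitals. A match is TGANTCA for AP-1, the Fos and Jun dimer, or AACCNGTT for Grainyhead-like factors, searched on both strands. The window of Sprr2d (chr3:92338890-92339139, plus strand) and that of Sprr1b (chr3:92438780-92439029, minus strand) each held an AP-1 match, first base 193 and 111 bases before the start. The S100a9 window (chr3:90695722-90695971, minus strand) held a Grainyhead-like match 173 bases before the start, and the windows of S100a8 (chr3:90668821-90669070, plus strand) and Sprr2a3 (chr3:92285054-92285303, plus strand) held neither.
Sprr2d: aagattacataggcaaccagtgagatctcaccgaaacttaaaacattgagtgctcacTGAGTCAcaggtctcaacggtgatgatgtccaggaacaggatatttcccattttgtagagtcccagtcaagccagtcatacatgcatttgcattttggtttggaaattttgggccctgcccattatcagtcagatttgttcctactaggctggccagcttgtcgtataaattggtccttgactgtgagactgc
Sprr1b: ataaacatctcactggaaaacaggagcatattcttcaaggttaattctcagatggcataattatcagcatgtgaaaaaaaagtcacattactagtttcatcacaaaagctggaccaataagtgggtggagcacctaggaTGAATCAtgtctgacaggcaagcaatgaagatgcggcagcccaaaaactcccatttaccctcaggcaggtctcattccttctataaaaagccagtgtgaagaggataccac
S100a9: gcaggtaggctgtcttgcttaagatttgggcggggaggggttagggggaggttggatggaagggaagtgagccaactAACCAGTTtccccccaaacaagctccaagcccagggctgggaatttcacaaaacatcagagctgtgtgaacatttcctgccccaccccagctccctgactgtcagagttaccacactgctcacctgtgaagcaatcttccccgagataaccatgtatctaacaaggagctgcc
S100a8: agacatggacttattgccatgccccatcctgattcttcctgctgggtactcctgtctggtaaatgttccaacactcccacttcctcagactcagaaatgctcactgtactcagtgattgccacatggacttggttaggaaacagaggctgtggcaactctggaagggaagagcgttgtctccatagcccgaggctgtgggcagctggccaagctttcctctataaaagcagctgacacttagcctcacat
Sprr2a3: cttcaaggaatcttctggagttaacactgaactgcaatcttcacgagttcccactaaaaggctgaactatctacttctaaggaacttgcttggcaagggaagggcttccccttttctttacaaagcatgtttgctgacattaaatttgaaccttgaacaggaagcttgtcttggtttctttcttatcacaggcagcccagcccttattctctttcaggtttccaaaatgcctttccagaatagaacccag

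Of all 32851 promoters, 6.75% held the AP-1 letters and 1.79% the Grainyhead-like letters. Among the 10 genes that were highest in high cells, 7 had a promoter in the table, of which 2 held AP-1 and 1 the Grainyhead-like letters. Among the 10 lowest, 8 had one, of which 1, Ccl27a, held AP-1 at one of its starts. A match is a description of letters and not a binding site. Krt6a had no entry in the table.

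High cells made up 80 of 3286 keratinocytes in KO 1 (2.43%, exact 95% binomial interval 1.94 to 3.02) and 141 of 1711 in KO 2 (8.24%, 6.98 to 9.65). In WT v1 they were 6 of 4025 (0.149%, 0.0547 to 0.324) and in WT 1 they were 2 of 2758 (0.0725%, 0.0088 to 0.262). WT 2 had 0 of 2413, which allows a share of up to 0.124% by 3 counts of the total, and up to 0.153% by the exact interval. Both KO libraries were above all 3 WT libraries, and the intervals of KO 1 and KO 2 did not overlap, so the share differed between KO libraries beyond counting error. The keratin limit passed 35.9% of KO 1 and 23.5% of KO 2 cells, against 79.6%, 40.8% and 36.6% in WT v1, WT 1 and WT 2. Of all cells kept, high cells were 80 of 9157 in KO 1 and 141 of 7283 in KO 2. The size of the gap therefore depends on the cells counted. The genes of the rule were not chosen independently of genotype. The paper reports Sprr2a3, Ly6a and Tpm2 as markers of IFE.A1, a cell state it found almost only in Grhl3-/- epidermis at P0. The contrast of KO and WT shares is therefore a description without a test. Intervals cover counting error only. Removing cells with the highest doublet scores or with markers of other types changed the KO mean of 5.34% to 5.63% and 6.07%. A keratin limit of 200 raised the shares to 3.38% and 22.2% in KO 1 and KO 2, and a limit of 20 UMIs per 10,000 on the pair lowered them to 0.822% and 4.85%, with the WT libraries at 0.281% or less under both. Membership read after thinning each cell to 3000 UMIs gave 1.34% and 5.13% in KO 1 and KO 2.

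**Figure D1:**
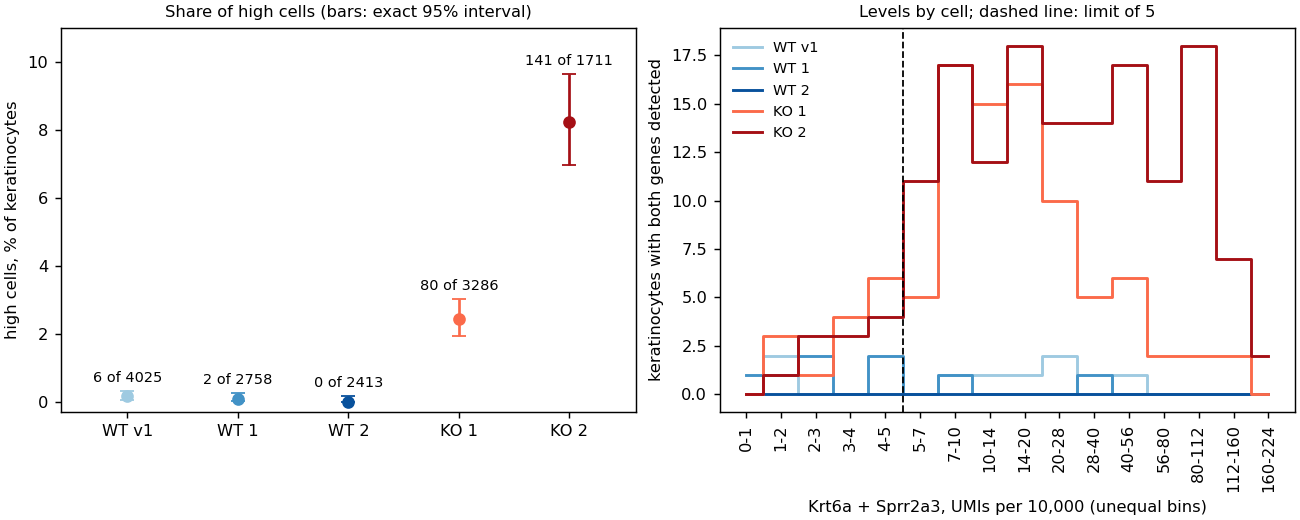
Left, high cells as percent of keratinocytes in each P0 library, with exact 95% binomial intervals; right, number of keratinocytes with both genes detected by their Krt6a + Sprr2a3 level in UMIs per 10,000 (unequal bins, limit of 5 dashed). The 2 KO libraries stand at 2.43% and 8.24% and the WT libraries at 0.149% or less, and the KO levels spread over the whole range above the limit without a gap at it.

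Krt6a reached 1574 CPM in the high cells of KO 1 and 3464 CPM in those of KO 2, and stood at 3.43 and 7.87 CPM in the cells below the limit. Sprr2a3 reached 1143 and 1219 CPM, against 9.62 and 15.9 CPM below. The level of the pair ran from 5.41 to 148 UMIs per 10,000 in KO 1 (median 15.1) and from 5.09 to 212 in KO 2 (median 26.4). There was no gap at the limit. The 5 cells just inside stood at 5.09 to 5.51 and the 5 just outside at 4.80 to 4.44, all from KO libraries. Reads of Sprr2a3 can be shared with neighbouring copies. Of the 90-base windows at its 3′ end, 42.3% also occur in Sprr2a1 or Sprr2a2, and for those copies 100% do, so the split among these 3 genes is uncertain. Krt6a and Krt6b shared no window.

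The genes of the pair were unevenly mixed from cell to cell. Krt6a gave a median of 31.1% of the pair's UMIs in KO 1 high cells and 61.9% in KO 2, with ranges of 1.64% to 94.6% and 0.99% to 97.9%. The mix moved with differentiation, read as the share of Krt1 and Krt10 in the UMIs of the 4 keratins, which is low in basal cells and high in spinous and granular cells. In KO 1 the Krt6a part had a median of 40.1% in cells with a share under 25%, 27.4% between 25% and 75%, and 8.70% over 75%. In KO 2 the medians were 66.7%, 63.3% and 52.2%. In both libraries the cells with more differentiation keratin carried relatively more Sprr2a3.

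High cells lay at every stage. In KO 1 there were 40 cells with a share under 25%, 25 between 25% and 75%, and 15 over 75%. In KO 2 these numbers were 61, 50 and 30. Their median share was 25.5% and 33.2%, against 1.61% and 2.44% in cells below the limit, so the high cells were further along than the keratinocytes they are compared with. They also held more UMIs, with medians of 22501 and 21931 against 8324.5 and 7917. Because stage and depth moved with the class, the main lists and counts are also given within a stage, and the count of genes within a band of 10000 to 40000 UMIs.

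The 3 further markers were higher in the high cells of both KO libraries, and since they were chosen with the cells they are described without a test. Krt6b stood at 929 and 3349 CPM in high cells of KO 1 and KO 2, against 1.498 and 7.81 CPM below the limit (log2 difference 9.40 ± 0.21, SE). Ly6a stood at 208 and 271 CPM against 9.99 and 13.7 CPM (4.76 ± 0.17). Tpm2 stood at 292 and 551 CPM against 30.01 and 46.8 CPM (3.84 ± 0.16). Both KO high sums exceeded all 5 sums below the limit for these genes.

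By cell, 138 of 221 KO high cells had a Krt6b UMI, 182 a Ly6a UMI and 213 a Tpm2 UMI. Cells with melanocyte markers, which should lack these genes, had a Krt6b UMI in 0.794% (KO 1) and 5.45% (KO 2) and a Ly6a UMI in 1.36% and 0.823%, at median depths of 7880 and 9235.5 UMIs. For Tpm2 these shares were 12.2% and 13.1%. The Krt6b share of cells below the limit in KO 2, 6.38%, was near that background. By share of cells with a UMI, Krt6b was the marker that moved most with stage. It was detected in 30% and 44.3% of high cells with a share under 25% and in 86.7% and 96.7% of those over 75%. Ly6a detection moved the other way in KO 2, from 90.2% to 53.3%. By level, Ly6a moved more than Krt6b between these ends, with log2 steps of −0.88 and 0.57 in high cells. Ly6a fell in both libraries, from 241 and 357 CPM to 128 and 156 CPM.

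The 8 WT high cells were a mixed set. Of the 8 cells, 4 had a Krt6b UMI, 5 a Ly6a UMI and 7 a Tpm2 UMI, but S100a8, Sprr2d, Il33, Tslp, Slpi and Sprr1b had 0 UMIs in all 8. With 6 and 2 cells, the WT sums were below the minimum of 10 cells, so high cells of KO and WT could not be tested against each other.

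Other genes moved with the level of the pair, in bins of all KO keratinocytes whether or not both genes were detected. At 5 to 10 UMIs per 10,000, 22 of 54 KO 1 cells and 28 of 52 KO 2 cells had both. Fabp5, a fatty acid-binding protein of keratinocytes that was chosen after its values were seen, went from 984 CPM in KO 1 cells without either gene to 13169 CPM at 5 to 10 UMIs per 10,000 and 31249 CPM at 50 or more. In KO 2 it went from 1141 to 14814 and 45256 CPM. Hbegf, an EGF receptor ligand, went from 4.61 to 237 and 608 CPM in KO 1 and from 3.81 to 103 and 337 CPM in KO 2. S100a8 was concentrated at the top, with 10.2 CPM at 5 to 10 and 1610 CPM at 50 or more in KO 1, and 14.2 and 610 CPM in KO 2. Its rise was not even, since in KO 1 it stood at 57.1 CPM at 2 to 5, above its value at 5 to 10. Krt6b, Il33, Tslp and Slpi were also concentrated at the top. Between these 2 bins Krt6b went from 101 to 4050 CPM in KO 1 and from 106 to 8538 CPM in KO 2. In the same order Il33 went from 2.04 to 460 and from 2.19 to 422 CPM. Tslp went from 1.02 to 159 and from 3.28 to 706 CPM, and Slpi from 3.07 to 344 and from 9.83 to 298 CPM. Krt15, a basal keratin, fell from 7064 to 2203 and 190 CPM in KO 1 and from 5039 to 1439 and 307 CPM in KO 2. Values already differed from those of cells without the pair at 2 to 5 UMIs per 10,000, below the limit, where Fabp5 stood at 6907 and 8771 CPM. These steps are descriptions, and depth and stage also rose along them.

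**Figure D2:**
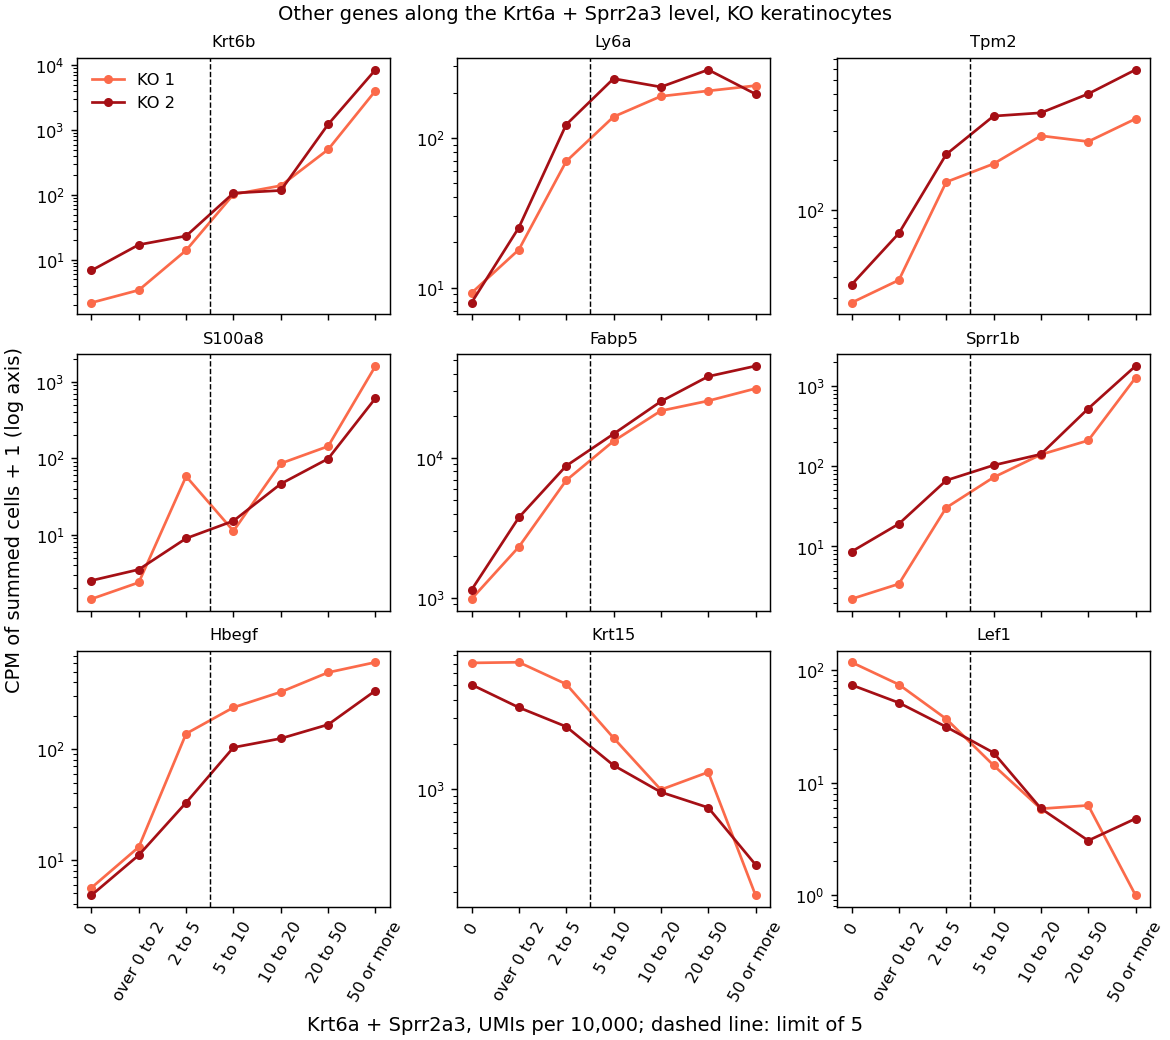
Summed CPM + 1 (log axes) of 9 genes in KO keratinocytes, in 7 bins of the Krt6a + Sprr2a3 level in UMIs per 10,000, 1 line per KO library, with the limit of 5 dashed. Fabp5 climbs from 984 to 31249 CPM in KO 1 and from 1141 to 45256 CPM in KO 2, S100a8 peaks in the last bin, and Krt15 and Lef1 are lowest past the limit.

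The question of which other genes set these cells apart was asked within the KO libraries, by edgeR's quasi-likelihood test on UMIs summed per library and class with library as a block. Of 11884 genes, 2427 rose (20.4%) and 2357 fell (19.8%) in high cells against keratinocytes below the limit, at a Benjamini-Hochberg adjusted p under 0.05. The fit rests on 2 libraries and 4 sums, so each gene has 1 residual degree of freedom and the p leans on the spread shared across genes and measures only the spread between these libraries. DESeq2 called 1503 (12.6%) and 881 (7.41%). Without KO 1 the counts were 1142 (8.24%) and 1040 (7.5%), and without KO 2 they were 989 (6.9%) and 860 (6.0%), in a fit with WT cells added. Within the depth band they were 2185 and 2126. Between 25% and 75% share they were 893 of 7823 (11.4%) and 813 (10.4%), where fewer cells and genes entered, and with the depth band as well 734 (10.4%) and 665 (9.39%) of 7081. In CPM the median gene differed by −0.38 and −0.48 on the log2 scale in high cells of KO 1 and KO 2, against −0.06 after the TMM scaling of edgeR, and fitted changes are relative to the latter.

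Of the 14 small proline-rich genes in the files, Sprr2a3 was used by the rule and 9 passed the filter on low counts. Sprr2e and Sprr2f were too low for the test, and Sprr3 and Sprr4 had 0 UMIs in KO keratinocytes of both classes. Sprr2a1 and Sprr2a2 are left out below, since their reads cannot be told from those of the other Sprr2a copies. The other 7, Sprr1a, Sprr1b, Sprr2b, Sprr2d, Sprr2h, Sprr2i and Sprr2k, were all higher. A gene near 0 below the limit can pass the filter only through the high sums and then has to differ, as with Sprr2k and Sprr2i. Il33, Slpi, Tslp and Acta2, given below, were near 0 there as well. Sprr2d was also low there, so its p is not given. The counts of this and the following lists therefore describe the members tested. Sprr2d was at 283 and 779 CPM in high cells of KO 1 and KO 2 against 0.691 and 2.35 CPM below (8.92 ± 0.21). Sprr1b was at 350 and 816 CPM against 1.81 and 11.2 CPM (7.22 ± 0.23, adjusted p = 9.92e-24). Sprr2k had 146 UMIs in high cells and 0 in the cells below, at least 485-fold higher against a floor of 3 counts over the group. Sprr1a, the member with the most UMIs below the limit, rose by 4.83 on the log2 scale, and between 25% and 75% share by 2.30.

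Among the stress keratins, Krt16, the partner of Krt6 in stressed skin, was at 497 and 2059 CPM against 22.2 and 30.9 CPM (5.70 ± 0.25). WT cells below the limit held more Krt16 than those of KO, 569.5 and 195 CPM in WT 1 and WT 2 (KO against WT −3.87, adjusted p = 0.00274). Over 75% share, WT 1 and WT 2 cells below the limit held 1690 and 435 CPM, a range that overlapped the 422 and 1408 CPM of KO high cells. Krt17, which often joins them and is also high in follicles, fell to 634 and 1234 CPM from 2273 and 2824 CPM (−1.09 ± 0.16). The high sums of Krt17 lay below both sums of the cells under the limit. Krt7, a simple-epithelium keratin chosen after its values were seen, stood at 485 and 833 CPM against 29.6 and 25.9 CPM.

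Alarmins, cytokines and growth factors formed a second group that rose, 17 of 22 tested, with 2 lower and a median of 3.82. S100a8 and S100a9, the subunits of calprotectin, rose to 354 and 236 CPM and to 415 and 327 CPM, from at most 2.48 CPM below the limit (7.89 ± 0.22 and 8.01 ± 0.21). Il33, a nuclear alarmin of the IL-1 family, was at 95.3 and 171 CPM against 0.317 and 0.635 CPM (8.55 ± 0.24). Tslp, an epithelial cytokine that acts on dendritic cells, was at 33.4 and 246 CPM against 0.144 and 1.02 CPM (8.32 ± 0.25). Tslp was higher in the high cells of KO 2 than in those of KO 1, as Krt6a was, and both high sums exceeded every other sum. Few cells carried most of it. At 50 or more UMIs of the pair per 10,000, 10 KO 1 cells held 56 of the 67 Tslp UMIs of high cells. In KO 2, 45 cells at that level held 744 Tslp UMIs, where all high cells held 754.
Slpi, a secreted inhibitor of leukocyte proteases, was at 84.9 and 134 CPM against 0.230 and 0.572 CPM (8.58 ± 0.25). The EGF receptor ligands Hbegf (6.00 ± 0.19) and Areg (6.31 ± 0.23) rose, as did Il18 (5.22 ± 0.25). The 2 that fell were Ccl27a, a chemokine for skin-homing T cells, at 7.49 and 6.53 CPM against 186 and 168 CPM (−4.23 ± 0.22), and Cxcl1. Within 25% to 75% share, 10 of 14 rose and 1 fell.

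S100a8 showed how uneven the high cells were, with a UMI in 38.8% and 35.5% of them, against 0.731% and 1.45% of cells below the limit. Langerhans and macrophage marker cells of KO 1 and KO 2 had one in 0.721% and 1.04%, close to the shares below the limit. Melanocyte marker cells had one in 5.22% and 7.20%, with S100a9 in 0.567% and 0.823%.

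Among fatty acid-binding proteins, Fabp5 stood at 23079 and 34421 CPM against 1199 and 1775 CPM, and both high sums lay far above all 5 sums of cells below the limit. Fabp4, better known from fat cells, reached 117 and 94.1 CPM against 0.951 and 0.762 CPM (7.34 ± 0.23). It was near 0 below the limit and passed the filter only through the high sums, so it had to differ and its p is not given.

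Differentiation genes were higher, though the class also differed in stage. Of the granular list 12 of 14 rose (median 2.58), of the spinous list 8 of 9 (1.74), with Krt77 lower. Tgm1, a transglutaminase that crosslinks the envelope, was at 64.9 and 83.0 CPM against 1.56 and 3.49 CPM (5.38 ± 0.22). Asprv1, a protease of filaggrin processing, was at 793 and 1199 CPM against 102 and 86.0 CPM (3.80 ± 0.18). Within 25% to 75% share the granular list still had 6 of 7 higher and the spinous list 4 of 8, with 1 lower. In CPM, 2 of these 4 spinous genes differed in direction between the libraries. Krtdap was at 2633 in high cells against 3039 below in KO 1, and at 3851 against 1946 in KO 2. Dmkn was at 2214 against 2718 in KO 1 and at 2712 against 2003 in KO 2. Over 75% share, 5 of 13 granular genes were higher and 1 lower, in a comparison that called 7.04% of genes higher and 2.95% lower. Elf3, an epithelial transcription factor chosen after its values were seen, stood at 106 and 173 CPM against 3.89 and 6.54 CPM.

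Proteases and their inhibitors rose in 21 of 25 cases, with 1 lower (median 2.77). Serpinb3a, a serpin of stressed squamous epithelium, was at 173 and 377 CPM against 2.71 and 7.62 CPM (6.23 ± 0.18). Stfa3, a cysteine protease inhibitor, was at 11040 and 11303 CPM against 3586 and 4891 CPM (1.84 ± 0.15), but it moved with stage. Over 75% share it was not called, at 21546 against 15732 CPM in KO 1 and at 20021 against 32347 CPM in KO 2. Spink5, the inhibitor of skin kallikreins that is lost in Netherton syndrome, was at 160 and 388 CPM against 1.70 and 4.19 CPM (6.96 ± 0.19). The kallikreins Klk6, Klk7, Klk8, Klk9, Klk10 and Klk13 rose, and Klk5 stood at 2.496 and 13.1 CPM against 3.86 and 7.37 CPM (adjusted p = 0.0666). At the middle stage, 25% to 75% share, 13 of 18 genes of this list rose and 0 fell (median 1.97).

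Junction and adhesion genes rose in 18 of 22 cases and fell in 0 (median 1.25). Dsc2, a desmosomal cadherin and the member that rose most, was at 74.9 and 53.3 CPM against 2.71 and 1.65 CPM (5.28 ± 0.22). Gjb2, connexin 26, was at 251 and 241 CPM against 19.8 and 23.7 CPM (3.93 ± 0.16). Cldn4, a tight junction protein, was at 49.4 and 34.96 CPM against 4.93 and 4.70 CPM (3.54 ± 0.22). At the middle stage 11 of 20 rose (median 0.78). Of the highly expressed members, Perp and Gja1 were higher in both libraries there. Dsp stood at 627 against 597 CPM in KO 1 and at 689 against 471 CPM in KO 2. Jup stood at 453 against 509 CPM in KO 1 and at 587 against 436 CPM in KO 2.
Actin cytoskeleton genes moved less, with Tpm2 left out 18 of 28 higher and 2 lower (median 0.62), and 11 of 26 higher and 1 lower within 25% to 75% share. The gene of this list that rose most was Acta2, smooth muscle actin, at 60.4 and 96.4 CPM against 0.490 and 1.08 CPM (7.12 ± 0.24). Tpm1, the relative of Tpm2, stood at 89.3 and 56.8 CPM against 99.5 and 61.7 CPM (adjusted p = 0.152). Of 7 Ly6 genes other than Ly6a, 6 rose (median 2.45), and within 25% to 75% share 3 of 6 did (median 0.60). Ly6d was at 3096 and 4889 CPM against 1593 and 1089 CPM, but it moved with stage. Between 25% and 75% share it was at 2967 CPM in high cells of KO 1 against 4018 CPM below, and at 5356 against 2696 CPM in KO 2. Over 75% it was at 4012 against 6277 CPM in KO 1 and at 4167 against 1891 CPM in KO 2.

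**Figure D3:**
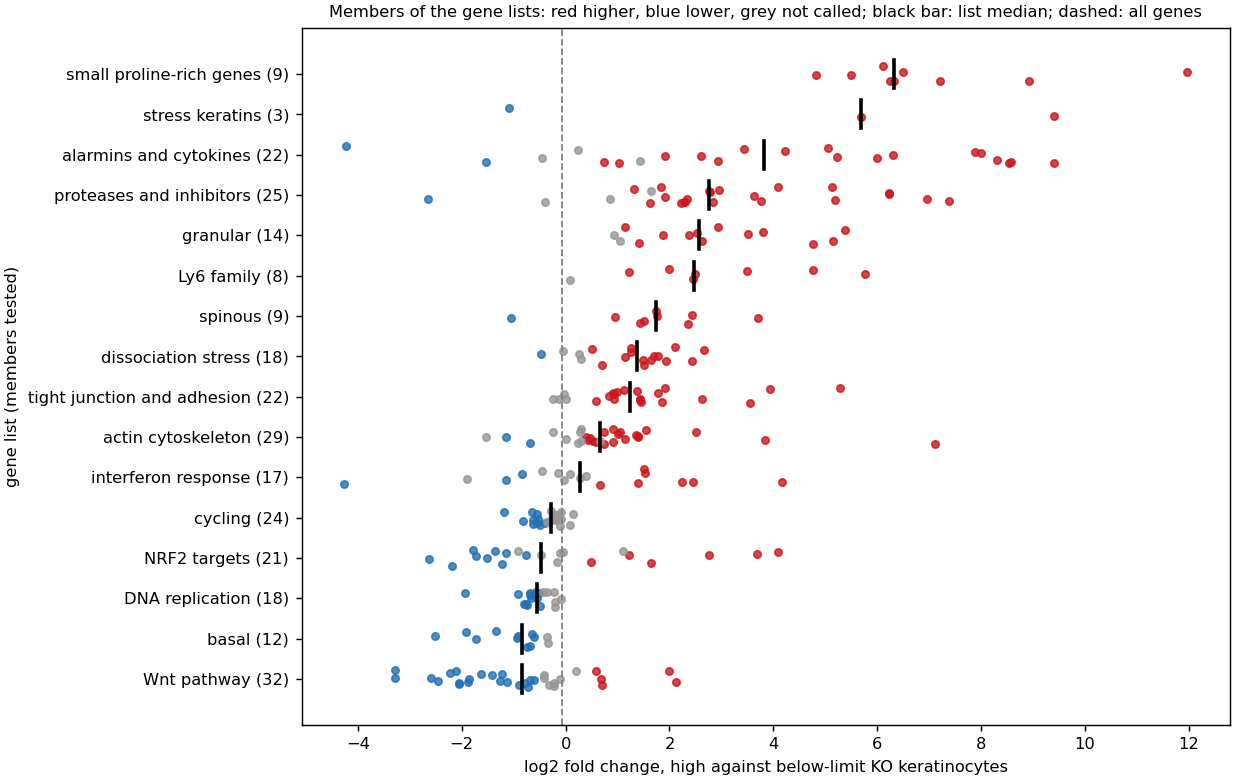
Each point is a gene of a list, at its fitted log2 change between high and below-limit KO keratinocytes, red where higher, blue where lower and grey where not called at an adjusted p of 0.05; the black bar is the list median and the dashed line the median of all genes, −0.06. The medians of the members tested run from small proline-rich genes (6.32) to the Wnt pathway (−0.84), and Krt6b, Ly6a, Tpm2, Sprr2a1 and Sprr2a2 are among the points and medians drawn though they are left out of the counts in the text.

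Basal genes were lower, 10 of 12 (median −0.83), and 11 of 12 within 25% to 75% share (median −1.42). Fewer were called at the ends, 5 of 12 under 25% share (median −0.42) and 4 of 11 over 75% (median −1.66). Of all genes 13.8% and 2.95% fell there. Under 25% share Col17a1, Itga6 and Itgb4 were not called, and Itga6 was at 116 and 212 CPM in high cells against 204 and 172 CPM below. Krt15 was at 805 and 716 CPM against 7035 and 4753 CPM (−2.51 ± 0.16). Dst, which anchors keratin to hemidesmosomes, fell by 1.91 (SE 0.16) on the log2 scale. Itga6 did not pass the test over all stages (−0.36 ± 0.16, adjusted p = 0.0773) and was lower between 25% and 75% share (−1.05, adjusted p = 0.00295).

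Among the 10 genes with the largest fall was Krt79, a keratin of the upper hair follicle, at 21.0 and 19.3 CPM against 296 and 526 CPM (−3.92 ± 0.20). Ppp1r14a, an inhibitor of myosin phosphatase, was at 5.49 and 2.29 CPM against 154 and 72.0 CPM (−4.46 ± 0.25). Penk, the precursor of enkephalins, was at 2.496 and 2.94 CPM against 75.3 and 68.5 CPM (−4.26 ± 0.28). In all 3 genes every high sum lay below every sum of the cells under the limit, WT included. Slc1a3, a glutamate transporter, changed by −4.17 ± 0.25, Nbl1, a secreted BMP antagonist, by −3.77 ± 0.26, and Pdlim4, an actin-associated adaptor, by −3.64 ± 0.21. Dcn, the matrix proteoglycan decorin, was at 41.4 and 38.9 CPM against 619 and 664 CPM (−3.58 ± 0.17). Ccer2 stood at 4.99 and 3.27 CPM against 56.4 and 79.9 CPM (−3.69 ± 0.27), but with a keratin limit of 200 its difference turned to 0.44. The gap was at a share under 25% (3.10 and 2.13 CPM against 65.2 and 96.3 CPM). Between 25% and 75% Ccer2 was at 6.84 and 4.75 CPM against 5.52 and 7.44 CPM, and over 75% at 6.59 and 3.33 CPM against 4.53 and 5.44 CPM.

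**Figure D4:**
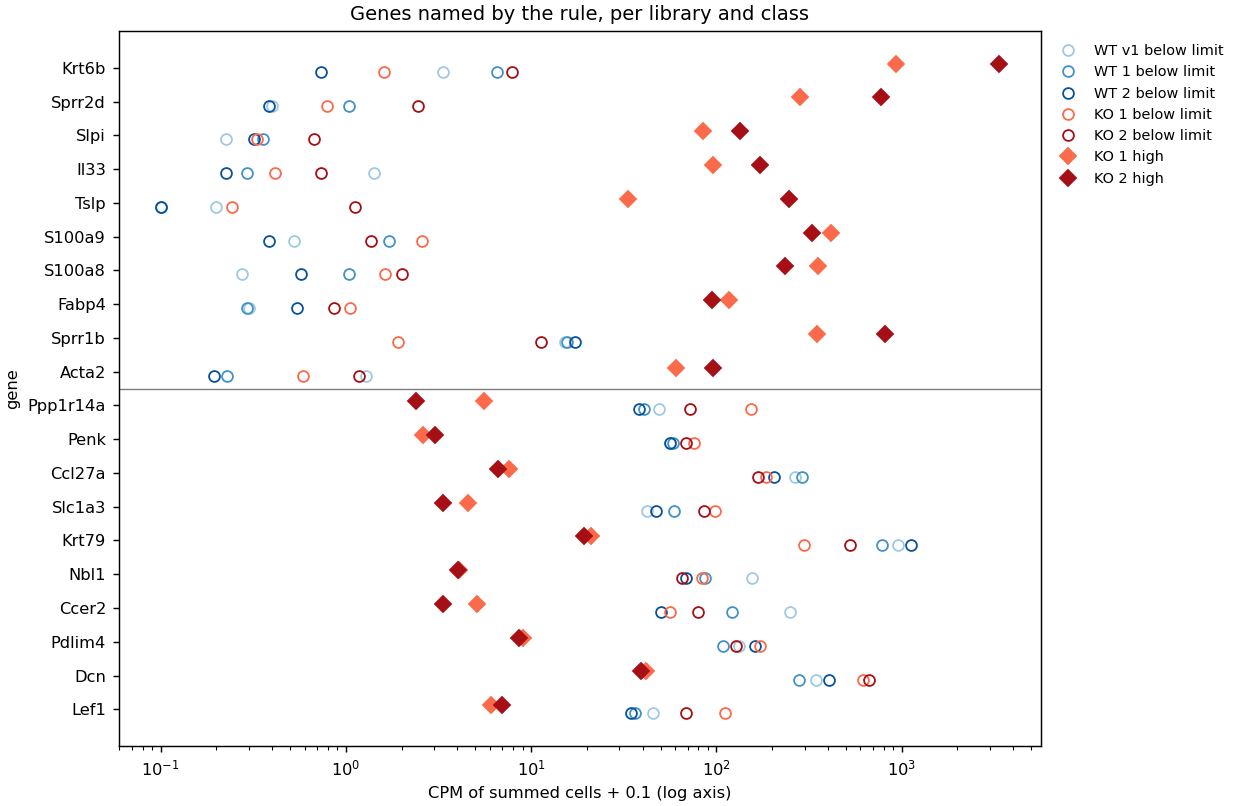
CPM + 0.1 (log axis) of the 10 genes with the largest rise and the 10 with the largest fall, in high cells (diamonds) of KO 1 and KO 2 and in cells below the limit (circles) of all 5 P0 libraries. In the upper 10 genes the KO high sums lie above all other sums, from 33.4 CPM for Tslp in KO 1 to 3349 CPM for Krt6b in KO 2, and in the lower 10 they lie below all of them.

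Wnt pathway genes fell in 20 of 32 cases and rose in 5 (median −0.84). Lef1, a transcription factor of Wnt signalling, was at 5.99 and 6.86 CPM against 111.6 and 68.4 CPM (−3.29 ± 0.24). The Wnt inhibitor Sostdc1 was at 24.96 and 40.5 CPM against 248 and 653 CPM (−3.29 ± 0.18), and Ccnd1, a cyclin and Wnt target, at 37.4 and 27.4 CPM against 166 and 203 CPM (−2.10 ± 0.18). Ligands fell as well, with Wnt6 at −2.46 ± 0.18 and Wnt7a at −2.59 ± 0.40. Within 25% to 75% share 11 of 23 fell and 2 rose. Over 75% share 2 of 22 fell (Axin2 and Sostdc1), 1 rose (Wnt4) and 19 were not called, Lef1 and Ccnd1 among them (median −0.38).
Wnt4 was called higher, at 453 and 285 CPM against 393 and 228 CPM (0.68 ± 0.14). It lost the call without KO 1 (0.78), without KO 2 (0.54) and with a keratin limit of 200 (0.02). Ctnnb1, which encodes beta-catenin, was called lower (−0.61 ± 0.14) and also lost the call without KO 1 (−0.60), without KO 2 (−0.67) and with the limit of 200 (−0.06), as it did between 25% and 75% share (−0.37, adjusted p = 0.248) and over 75% (−0.07, adjusted p = 0.895). Gsk3b, a kinase that marks beta-catenin for degradation, stood at −0.33 ± 0.15 (adjusted p = 0.0844). Gpc3, a cell-surface proteoglycan, was lower (−1.27 ± 0.18), and Dkkl1 was at 3.99 and 16.0 CPM against 1.01 and 6.16 CPM (1.99 ± 0.38). Over 75% share Dkkl1 was at 16.47 and 38.3 CPM against 9.57 and 47.7 CPM and was not called (0.14, adjusted p = 0.886). Grhl3 itself stood at 6.49 and 3.92 CPM against 2.30 and 5.02 CPM (0.93 ± 0.46, adjusted p = 0.105).

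The stress response lists were mixed. Of 21 NRF2 targets 6 rose and 9 fell (median −0.47), with Srxn1 (4.09 ± 0.42) and Txn1 (1.64 ± 0.14) higher and Gstm1 (−2.63 ± 0.21) and Ftl1 (−1.73 ± 0.15) lower. Of 17 interferon response genes 7 rose and 3 fell (median 0.28). At the middle stage 3 of 15 NRF2 targets rose and 5 fell, and 6 of 8 interferon genes rose and 2 fell. Immediate early and heat shock genes, which dissociation also induces, rose in 14 of 18 cases and fell in 1 (median 1.38), and in 12 of 17 within 25% to 75% share. Their summed level was 6490 and 5858 CPM in high cells against 3502 and 3866 CPM below. Fos was at 1427 and 1575 CPM against 570 and 609 CPM (1.77 ± 0.15). The part of dissociation in the other differences was not tested.

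Markers of other cell types were lower in high cells for some types and higher for others. The 2 Merkel markers, Krt20 and Atoh1, had 0 UMIs in the high cells of both KO libraries. Summed CPM of the 4 melanocyte markers was 105 and 83.0 against 308 and 478 below the limit, and of the 5 Langerhans and macrophage markers 21.96 and 37.2 against 101 and 149, with Cd207 at 0. Outer root sheath markers summed to 699 and 1287 CPM against 2469 and 3121 CPM. The companion layer, where Krt6a is normally made, is marked by Krt75, which stood at 3.00 and 4.25 CPM against 0.691 and 2.29 CPM, 6 and 13 UMIs in high cells, and was called higher (1.77 ± 0.60, adjusted p = 0.0175). The 4 sebaceous markers summed to 233 and 228 CPM against 111.8 and 95.9 CPM. Mgst1 gave most of that sum and rose (2.33 ± 0.15), Plin2 fell, and Awat1, which defines sebocytes, had 0 UMIs in both KO high sums. Periderm markers summed to 487 and 835 CPM against 35.2 and 31.6 CPM. Krt7 gave nearly all of that sum, Krt4 had 0 UMIs in both KO high sums, and Krt8 and Krt18 had 0 UMIs in KO 1 and 0.327 CPM each in KO 2.

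Dividing cells were found among the high cells. After thinning to 3000 UMIs, 30 of 80 (37.5%, exact 95% interval 26.9 to 49.0) in KO 1 and 45 of 141 (31.9%, 24.3 to 40.3) in KO 2 carried at least 3 UMIs summed over 24 cycling genes. Unthinned shares were 40% and 30.5%, by a rule of at least 10 UMIs per 10,000 from at least 3 of these genes. Below the limit the thinned shares were 35.2% and 38.0%. The difference, high minus below, was +2.30 percentage points in KO 1 and −6.05 in KO 2. It differed in sign between the libraries, and with 2 libraries an exact sign-flip permutation test cannot give p under 0.5, so no difference was shown. By stage, KO 1 and KO 2 high cells with a share under 25% were dividing in 47.5% and 49.2%, differences of +10.3 and +7.91 points from cells of that stage below the limit. Between 25% and 75% the differences were +10.0 and −21.2 points, and over 75% they were +2.15 and +1.84 points.

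Of the 24 cycling genes, 10 fell over all stages and 0 passed the test as higher by edgeR, with a median of −0.28. Within 25% to 75% share, 0 of 23 were called in either direction, where 11.4% of all genes were called higher and 10.4% lower by edgeR. Of 18 DNA replication genes 12 fell (median −0.55), and 2 of 17 within that stage. Mki67, a marker of cycling cells, stood at 68.9 and 51.0 CPM against 80.8 and 90.2 CPM (adjusted p = 0.638).
Non-dividing cells alone gave 1992 genes higher (17.9%) and 1859 lower (16.7%), and dividing cells alone 1430 (13.5%) and 1257 (11.8%). Of the 20 genes with the largest rise or fall, 19 were called in the same direction in both sets. Tslp did not pass the filter on low counts in dividing cells. The 20 genes were picked in the comparison of all these cells, dividing and non-dividing, and they include the given marker Krt6b. The count of 19 was therefore largely set by the choice of genes and does not show that the differences are independent of division. S100a8 had a log2 change of 8.27 among non-dividing and 4.29 among dividing cells, Sprr1b of 7.15 and 6.35, and Krt79 of −4.52 and −2.63. The difference between dividing and non-dividing cells was not tested.

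Since the WT libraries had almost no high cells, KO high cells were set against WT keratinocytes below the limit, a comparison added after the numbers of cells were known. Of 12772 genes 1837 rose (14.4%) and 1762 fell (13.8%) by edgeR. Without KO 1 the counts were 767 and 549, without KO 2 they were 298 and 117, and without WT 1 they were 1202 and 1282. Genotype and class differ together here, and the same KO high sums serve as in the comparison above, so the comparisons are not independent.
Tslp had 821 UMIs in KO high cells and 0 in the WT 1 and WT 2 cells below the limit, at least 3386-fold higher against a floor of 3 counts over the group. KO 2 held most of these UMIs, and the bound was 699-fold for KO 1 alone and 5145-fold for KO 2 alone. Tdgf1, which encodes the Nodal co-receptor Cripto, stood at 214 and 63.4 CPM in KO high cells, at 1.79 and 0.953 CPM in KO cells below the limit and at 0 UMIs in all 3 WT libraries. It was at least 2569-fold higher than in WT 1 and WT 2, by 4472-fold for KO 1 alone and 1324-fold for KO 2 alone. From pooled CPM, Sprr2d was 961-fold, Il33 885-fold, Acta2 735-fold, Krt6b 681-fold, Slpi 478-fold and S100a8 402-fold higher. The fold of Krt6b was 265 without KO 2, 3784 without WT 1 and 371 without WT 2, and that of Sprr2d was 467, 2048 and 623. The folds of the other 4 genes moved by less than 1.5 times when any one of the 4 libraries was left out. They rest on few WT UMIs, 10 for Il33, 7 for Acta2, 15 for Slpi and 44 for S100a8. Without WT 1 these were 4 for Il33 and 3 for Acta2, at or near the floor of 3 counts, so the size of these folds is uncertain. KO cells below the limit were within 6.03-fold of WT for these 6 genes, with Krt6b at 0.988-fold.

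Some lists differed from those of the comparison within KO. Small proline-rich genes other than Sprr2a1 and Sprr2a2 were higher in all 8 that passed the filter and alarmins and cytokines in 13 of 22, with 1 lower. Of the granular list 2 of 19 rose and 5 fell (median −1.15), and of the spinous list 1 of 10 rose and 2 fell (median −0.11). At the middle stage the granular median turned to 1.298, with 5 of 12 higher (Lor, Ivl, Tgm1, Tgm3 and Asprv1) and Flg lower, and the spinous median to 0.82, with 2 of 9 higher and 1 lower. In KO against WT cells below the limit, granular genes fell in 17 of 20 cases and spinous genes in 9 of 10, where 11.1% of 13715 genes rose and 13.0% fell. Stage differed too, with 5.11% and 11.4% of KO 1 and KO 2 cells below the limit at a share over 75%, against 25.7% and 31.6% of WT 1 and WT 2. At the middle stage 4.94% of 10545 genes rose and 4.06% fell. The calls over all stages went to 0 in both directions without KO 1 or without KO 2 (edgeR, 3909 and 3580 genes at an unadjusted p under 0.05). The values stand side by side for Sbsn, a secreted spinous protein, at 497 and 684 CPM in WT 1 and WT 2, 64.8 and 78.4 CPM in KO cells below the limit and 162 and 447 CPM in KO high cells. Flg, the granular protein filaggrin, was at 865 and 873 CPM in WT, 7.95 and 30.5 CPM in KO cells below and 29.9 and 25.5 CPM in KO high cells. Tgm1 was at 20.8 and 24.6 CPM in WT, 1.56 and 3.49 CPM below and 64.9 and 83.0 CPM in high cells. Over all stages Sbsn and Flg in high cells lay below both WT sums, and Tgm1 lay above them. Sbsn depended on stage. At a share under 25% it was at 103 and 271 CPM in KO high cells against 118 and 155 CPM in WT 1 and WT 2, between 25% and 75% at 175 and 479 against 192 and 249 CPM, and over 75% at 316 and 804 against 1459 and 1512 CPM. KO 2 high cells thus lay above both WT sums at the earlier stages and KO 1 high cells below them. Tgm1 at a share over 75% was at 46.1 and 99.9 CPM in high cells of KO 1 and KO 2 against 67.2 and 58.9 CPM in WT 1 and WT 2, so KO 1 lay below both there.

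The genes lowest against WT stood at or near 0 in high cells. Cyp2g1, a cytochrome P450, had 0 UMIs in KO high cells against 6520 in WT cells, at least 176-fold lower, and Pcsk2, a prohormone convertase, had 0 against 4253, at least 115-fold lower. Rarres1 was at 0 and 1.31 CPM against 42.5 and 102 CPM in WT 1 and WT 2, Krtap17-1, a hair keratin-associated protein, at 0.499 and 0 CPM against 76.5 and 75.9 CPM, and Cfap57 at 0.998 and 2.61 CPM against 65.1 and 77.7 CPM. All 5 were also lower in KO cells below the limit than in WT 1 and WT 2, with adjusted p from 5.89e-05 for Krtap17-1 to 0.0352 for Cfap57. WT v1, which entered no test, had Pcsk2 at 11.2 CPM, near the 14.4 and 10.3 CPM of KO 1 and KO 2 and far under the 90.1 and 46.1 CPM of WT 1 and WT 2. Cfap57 did not pass between 25% and 75% share (−0.49, adjusted p = 0.257). Markers of other cell types moved in the same comparisons, in both directions. The blood markers Hba-a1 and Hbb-bs and the fibroblast marker Col3a1 were higher in KO high cells than in WT cells. Col1a2 was lower, as were 3 of 4 melanocyte markers and 2 of the 4 Langerhans and macrophage markers tested. Against WT, Scd1, Plin2 and Awat1 of the 4 sebaceous markers were lower in KO high cells, while Mgst1 was higher. All 4 sebaceous markers were lower in KO cells below the limit. Of the 4 outer root sheath markers, Sox9, Lgr5 and Lhx2 were lower in KO high cells. The sebaceous sum was 233 and 228 CPM in high cells of KO 1 and KO 2, against 236 and 225 CPM in WT 1 and WT 2. The part of cells of these other types in the genes above was not tested. Within 25% to 75% share 14.8% of 9715 genes rose and 13.9% fell, with 10 of 15 alarmins and cytokines higher.

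The last question was how the high cells change along differentiation. Among KO high cells, 448 of 6211 genes rose (7.21%) and 495 fell (7.97%) from a share under 25% to one over 75%. In cells below the limit 1462 of 11666 rose (12.5%) and 1584 fell (13.6%). Of 11 basal genes tested along this step in high cells, 7 fell and 0 rose (median −2.93 against −0.01 for all genes), and Krt15 stood at −0.14 (adjusted p = 0.596). Col17a1, a hemidesmosome collagen, fell from 155 and 140 CPM to 6.59 and 6.66 CPM (−4.22 ± 0.37), Itga6 from 116 and 212 CPM to 16.47 and 3.33 CPM (−4.25 ± 0.36), and Itgb4 changed by −3.82 ± 0.53. Of 9 granular genes 7 rose and 0 fell (median 2.87), while Tgm1 stood at 0.31 (adjusted p = 0.458), and of 8 spinous genes 6 rose (median 0.97). Flg went from 2.06 and 5.68 CPM to 191 and 81.6 CPM (5.02 ± 0.35), Tgm3 changed by 4.45 ± 0.29 and Serpinb3a by 4.47 ± 0.18. The shares define the step, so only genes outside the 4 keratins are given.

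The genes that mark the high cells, by contrast, were already high at the basal end. These genes were picked in the same cells, and high cells of both ends had to pass the limit on Krt6a and Sprr2a3. High levels at the basal end and flatter steps than below the limit were thus partly set by the choice of cells and genes. Sprr1b was at 381 and 788 CPM under 25% and at 557 and 876 CPM over 75% (0.52 ± 0.13), while in cells below the limit it rose from 0.74 and 3.73 CPM to 19.7 and 59.2 CPM (4.59 ± 0.31). The difference of these steps was −4.03 ± 0.38. Krt16 was at 639 and 2511 CPM and then at 422 and 1408 CPM in high cells, so it fell (−0.54, adjusted p = 0.000158), against 13.3 and 14.8 CPM and then 70.0 and 124 CPM below, a difference of −3.41 ± 0.42. S100a8 was at 528 and 192 CPM and then 431 and 226 CPM (0.15 ± 0.15, adjusted p = 0.591). Fabp5 was at 18242 and 27699 CPM and then 32827 and 41838 CPM in high cells, against 706 and 677 CPM and then 6572 and 10295 CPM below, a difference of −2.92 ± 0.35. Sprr1a (−4.87), Spink5 (−3.85), Elf3 (−3.26) and Tgm1 (−3.05) also had a lower step in high cells. Over all genes the step was lower in high cells than below the limit for 177 of 9425 (1.88%) and higher for 26 (0.276%). Genes named for this step and not among the 10 highest or lowest were picked after their values were seen.
Cdkn1c, an inhibitor of the cell cycle, was the reverse case. It went from 55.7 and 42.6 CPM to 237 and 185 CPM in high cells and from 47.8 and 35.2 CPM to 19.1 and 18.1 CPM below, a difference of 3.19 ± 0.32.
Not every gene was flat. Acta2 fell from 81.5 and 159 CPM to 13.2 and 31.6 CPM (−2.18 ± 0.29) and Il33 from 163 and 217 CPM to 26.4 and 91.6 CPM (−1.39 ± 0.21), so these were highest in high cells at the basal end. Fabp4 rose from 53.7 and 35.5 CPM to 530 and 96.6 CPM (2.70 ± 0.21).

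**Figure D5:**
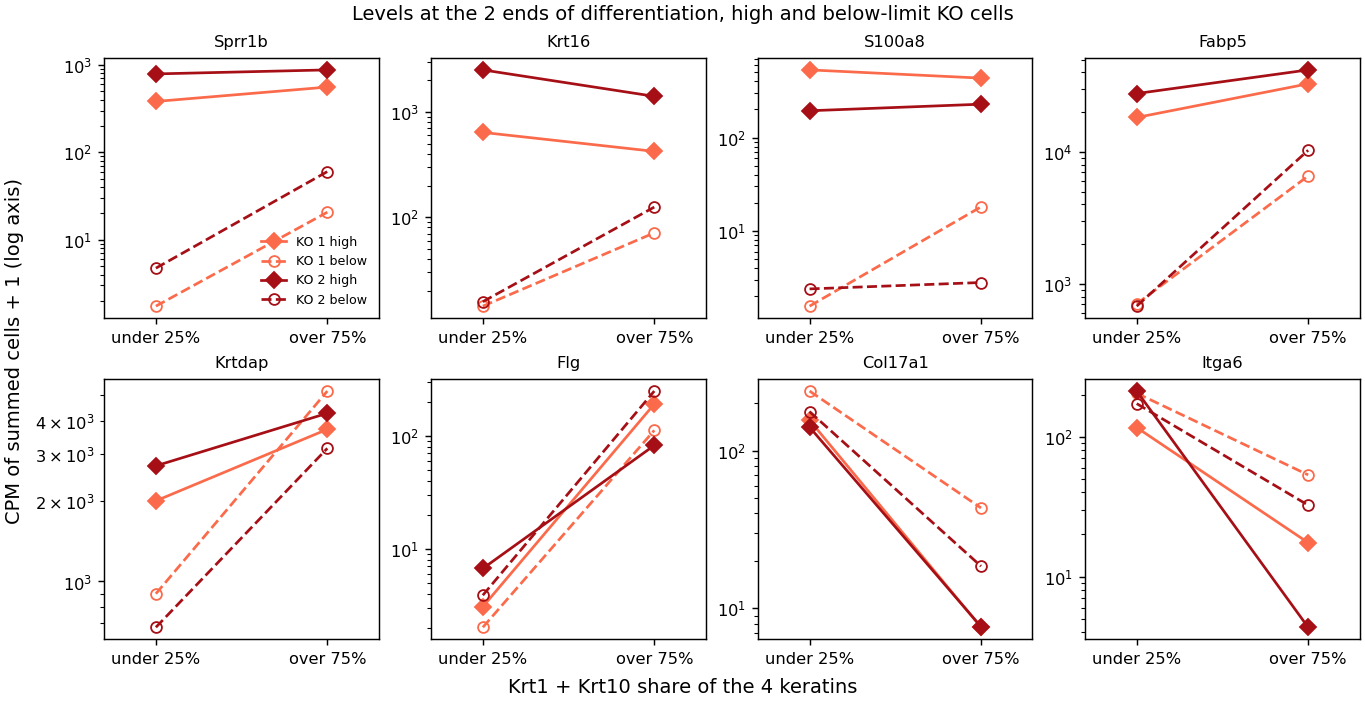
CPM + 1 (log axes) of 8 genes at a Krt1 + Krt10 share under 25% and over 75%, in high cells (solid lines, diamonds) and cells below the limit (dashed lines, circles) of KO 1 and KO 2. The steps of Sprr1b and Krt16 in high cells are lower than those below the limit, from 381 and 788 CPM to 557 and 876 CPM for Sprr1b, and Flg rises while Col17a1 and Itga6 fall in both classes.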

How the data were processed

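Droplet libraries (10x Genomics Chromium 3′, v1 or v2) of P0 epidermis were read from the matrices the authors deposited, which hold raw UMI counts per gene and barcode without normalization. Per the labels, Cell Ranger 1.3.1, Seurat and the mm10 build were used by the submitters; the methods name another Cell Ranger version. The matrices hold 27998 gene identifiers with 27933 symbols. Cells of 900 to 7700 genes and at most 10% mitochondrial UMIs were kept.

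UMIs were summed per library and class and tested with edgeR 4.0.16 (quasi-likelihood, TMM, filterByExpr, Benjamini-Hochberg, threshold 0.05; R 4.3.3, limma 3.58.1), with DESeq2 1.42.0 as an alternative. The model was checked on simulated counts. Sums of fewer than 10 cells were left out. Krt6a, Sprr2a3, Krt5, Krt14, Krt1 and Krt10 entered no test. CPM are UMIs of a gene divided by all UMIs of the summed cells and scaled to a common total. Counts, shares and lists used Python 3.11.15, numpy 2.4.6, scipy 1.17.1 and pandas 2.3.3. Scrublet (scanpy 1.11.5) called under 0.05% of cells, so the 0.8% highest scores per 1000 cells of a library were set aside as an alternative. These held 3 and 2 high cells of KO 1 and KO 2.

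Named genes are the 10 that rose most and the 10 that fell most (mean log2 CPM of at least 5, same sign in each library), the 8 in each direction against WT (1 of them is not reported here), the given markers and 6 Wnt-related genes with Grhl3. Some list members given in the text, such as Dsc2, do not follow this rule. The members and the 16 gene lists were chosen with earlier results of these data known. Krt6b, Ly6a, Tpm2, Sprr2a1 and Sprr2a2 were left out of the list counts, a choice made after seeing the data. The planned tests of KO against WT high cells, and of the genotype difference in the step between classes, could not be fitted, since no WT sum reached 10 cells. KO high cells against WT cells below the limit were compared in their place. Dividing cells were called from a list of 24 cycling genes. Alternatives were tool, scaling, filters, limits, depth, doublets, stage, division, other cell types, block and leaving out libraries. Each library is 1 animal or preparation as far as the sources state. Sequences are from RefSeq (GRCm38.p6), of which 250 bases before the start were used.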

Additional observations from a re-analysis of the deposited data

Results flagged for a closer look

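The step from a Krt1 and Krt10 share under 25% to one over 75% differed between high and below-limit KO cells, by edgeR's test of the difference itself, for 8 of the named genes. The log2 step in high cells minus that in cells below the limit was −2.97 for Sprr2d, −3.57 for Slpi, −3.73 for S100a9, −3.55 for S100a8 and −4.03 for Sprr1b. In cells below the limit the fitted step was a rise for all 5, but for S100a8 and S100a9 KO 1 carried it (0.57 to 17.1 and 0.84 to 25.7 CPM). In KO 2 S100a8 went from 1.40 to 1.81 CPM below the limit and from 192 to 226 CPM in high cells. S100a9 went from 1.40 to 0 CPM below and from 227 to 381 CPM in high cells, the opposite sign of the fitted difference. In high cells Sprr1b rose by 0.52, and the steps of the other 4 did not pass the test, with Slpi lower in both libraries (106 and 114 CPM, then 62.6 and 78.2 CPM). It was 4.7 for Ccer2, 2.84 for Dcn and 1.22 for Wnt4. Ccer2 and Dcn, which are low in high cells, fell along the step in the cells below the limit, Dcn from 702 and 745 CPM to 84.1 and 230 CPM. The errors of these values rest on 2 libraries. High cells of both ends had to pass the limit on Krt6a and Sprr2a3, so differences for genes that move with the pair were partly set by the choice of cells.

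A second set of keratinocytes passed the limit of 5 UMIs per 10,000 through Sprr2a3 alone, with no Krt6a UMI, and entered no comparison. They made up 1.7% of keratinocytes in KO 1 and 2.81% in KO 2 (56 and 48 cells), against 0.199% in WT v1, 0.29% in WT 1 and 0% in WT 2. They held Fabp5 at 15832 and 20737 CPM, Ly6a at 116 and 85.0 CPM and Tpm2 at 164 and 254 CPM in KO 1 and KO 2, between the high cells and those below the limit. Their median depth was 14055 and 10732.5 UMIs, under that of the high cells, and their median Krt1 and Krt10 share was 16.6% and 96.9%. The part of depth in the missing Krt6a was not tested.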

How the results depend on the processing

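Genes higher and lower in high cells numbered 2427 and 2357. They were 1503 and 881 with DESeq2, 1552 and 1404 with a keratin limit of 200, and 893 and 813 at a share of 25% to 75%. Among alternatives added after seeing the data, they were 734 and 665 at that share within 10000 to 40000 UMIs, 1430 and 1257 in dividing cells and 516 and 216 at a share over 75%. Leaving out a KO library gave 989 to 1142 higher and 860 to 1040 lower, in a fit where the lone high sum is assumed to vary like the other groups. RLE scaling, no filter, a limit of 10, thinned membership, removal of high doublet scores or other cell types, non-dividing cells, the depth band, a share under 25% and no replicate block (1858 and 1890) stayed within 1.5 times. For KO high against WT cells, leaving out a library gave 298 to 1345 higher and 117 to 1444 lower, and the replicate block 2153 and 2054. For KO against WT cells below the limit it gave 0 to 1186 and 0 to 1493, a share of 25% to 75% gave 521 and 428, and the replicate block 1390 and 1680. The deviations of WT and KO libraries of one number had a correlation of 0.0188 over genes. With 2 libraries per genotype this cannot decide whether the numbers pair litters or preparations. The cause of the changes in counts was not tested, beyond the fewer genes and cells some settings leave.

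The KO mean share of 5.34% moved to 12.8% with the keratin limit of 200 and ranged from 2.84% to 6.07% otherwise. The dividing difference, −1.87 points on average, was 9.12 at a share under 25%, and −6.05 to 2.3 without a library. Ccer2 reversed to 0.44 with the keratin limit of 200. Of the other checks on named genes against cells below the limit, the given markers included, 469 left the call unchanged, 17 lost and 2 gained it. Genes called in neither fit count as unchanged whatever their sign. Many named genes were picked as the extremes of the main comparison in the same cells, so unchanged calls were partly set by that choice. Against WT, 171 kept and 5 lost the call. With 2 KO libraries and 8 WT high cells, no test of genotype within high cells was possible.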

Other observations

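Keratinocytes that passed the limit through Krt6a alone differed in some genes from the high cells, which carry both genes, and overlapped them in others. WT v1, WT 1 and WT 2 had 19, 8 and 22 such cells, and KO 1 and KO 2 had 2 each. The WT cells carried Krt79, a keratin of the upper hair follicle, at 3981, 2099 and 11104 CPM, and Krt17 at 18178, 2205 and 14023 CPM. The 2 such cells of KO 1 and of KO 2 carried Krt79 at 10222 and 3630 CPM and Krt17 at 5401 and 6637 CPM. High cells of KO 1 and KO 2, with both genes, held Krt79 at 21.0 and 19.3 CPM and Krt17 at 634 and 1234 CPM. Of Ly6a the WT cells held 38.7, 39.6 and 3.63 CPM, and of Fabp5 4669, 6007 and 5142 CPM. Their Sprr1b stood at 98.9, 647 and 748 CPM, against 350 and 816 CPM in high cells of KO 1 and KO 2. Their Krt6b stood at 1754, 383 and 58.1 CPM, against 929 and 3349 CPM. In WT 2, Sprr2d reached 335 CPM at 10 to 20 UMIs per 10,000 and Il33 178 CPM at 50 or more. Cells with Krt6a alone entered no comparison and are not among the WT cells below the limit. This contrast was chosen after its values were seen and rests on few cells, so it is given as values without a test.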
